A study of Mus musculus with 6 samples.

Results

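The microRNAs described here come from a pair of small gene clusters that encode miR-23, miR-24 and miR-27. The a cluster holds Mir23a, Mir27a and Mir24-2, and the b cluster holds Mir23b, Mir27b and Mir24-1. Their assays were chosen by name among those of the deposited raw sheet: every assay called miR-23a, miR-23b, miR-24, miR-27a or miR-27b, with or without a copy number, an arm or an asterisk. This gave 11 assays of 584 microRNA assays, with 5 of the a cluster, 5 of the b cluster and miR-24 itself, which both clusters make. MicroRNA was taken from purified cell bodies of projection neurons of postnatal day 1 mice. The callosal class (CPN), whose axons join the cerebral hemispheres and which the labels mark as control, gave 3 samples, and subcerebral projection neurons (SCPN), which send axons out of the cortex to the brainstem and spinal cord, gave 3. The labels give no strain, genotype, treatment, litter or animal, so a p-value here speaks of the variation among these 6 samples alone, part or all of which may be technical. Each assay is a quantitative PCR read as a threshold cycle (Ct), and a lower Ct means more template.

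The hairpins of a cluster lie close together and are made from one primary transcript, so the 3 microRNAs of a cluster can be produced together. The clusters are known from blood vessels, where miR-23 and miR-27 take part in angiogenesis, from glia and from neurons, where miR-23 and miR-27 repress the apoptosis gene Apaf1. MiR-27 is also known as a repressor of fat cell differentiation through Pparg, miR-24 as a repressor of cell cycle genes, and miR-23 as a repressor of glutaminase. A name with an asterisk is the other arm of the same hairpin, usually the less abundant one.

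In RefSeq (GRCm38.p6, plus strand) the a cluster spans 404 bp on chromosome 8 and overlaps no other annotated gene, while the b cluster spans 792 bp on chromosome 13 within the protein-coding gene Aopep. Of the 11 assays, 8 mouse-named ones matched a mature RefSeq sequence by name. The mouse-named miR-23b and the rat-named miR-23a* and miR-24-1* did not. Their sequences are not shown, and those of miR-23a and miR-23b are not compared. The sequences are shown because they set what the a and b assays can tell apart. They run 5′ to 3′, and capitals mark the seed, bases 2 to 8, which pairs with target messages.
miR-27a, chr8:84208727-84208747: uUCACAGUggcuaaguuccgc
miR-27b, chr13:63300760-63300780: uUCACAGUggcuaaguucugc
miR-23a, chr8:84208563-84208583: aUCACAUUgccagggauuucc
miR-24, chr8:84208875-84208896 and chr13:63301251-63301272: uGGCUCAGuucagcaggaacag
miR-27a*, chr8:84208685-84208706: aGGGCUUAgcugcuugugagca
miR-27b*, chr13:63300718-63300739: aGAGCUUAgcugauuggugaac
miR-24-2*, chr8:84208839-84208860: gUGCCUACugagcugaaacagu
miR-24-1*, chr13:63301213-63301235: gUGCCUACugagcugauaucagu

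MiR-27a and miR-27b share the seed and differ by 1 substitution, C19U (miR-27a base first, counted from the 5′ end). Signal of one in the assay of the other was not tested and has no measure in these files. The other arms differ more: miR-27a* and miR-27b* have 8 substitutions over 22 bases, of which G3A lies in the seed. MiR-24-2* and miR-24-1* share their first 16 bases. The mature miR-24 of both genes is one sequence, so its assay reads the sum of the clusters. Among RefSeq mouse microRNAs the miR-27 seed is shared by miR-27a and miR-27b alone, and the 4 others with the miR-24 seed have no assay on the cards.

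**Figure D1:**
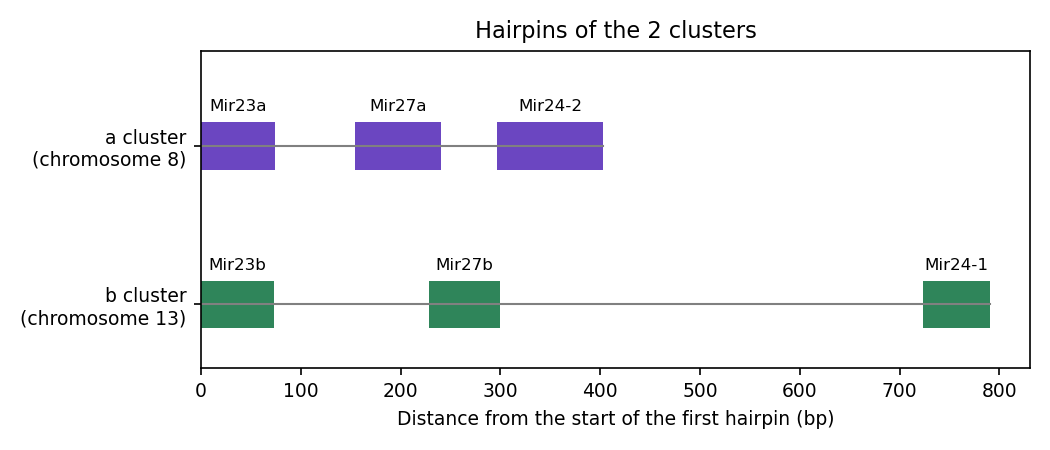
Hairpins of both clusters drawn to scale, with the distance in bp from the start of the first hairpin on the x axis. The a cluster (purple) spans 404 bp and the b cluster (green) 792 bp, with the genes in the same order.

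Detection of these microRNAs varied with the mean Ct of the sample, within each group. Detected means an assay mean Ct under 35. Of the 11 assays, 7, 2 and 6 were detected in CPN replicates 1, 2 and 3, and 7, 5 and 3 in SCPN replicates 1, 2 and 3. The mean Ct of 159 card A assays detected in every sample was 22.6, 28.1 and 24.7 for CPN, against 21.8, 27.1 and 27.2 for SCPN. Thus both samples numbered 1, which had the lowest mean Ct, detected the most, and CPN replicate 2, with the highest mean Ct, detected the fewest. Of all 584 assays, 319, 250 and 319 were detected in CPN and 331, 278 and 265 in SCPN. CPN replicate 2 again had the fewest and SCPN replicate 1 the most, so these extremes were not particular to the 11. The fall between those samples was a larger share for the 11, from 7 to 2, than for all assays, from 331 to 250.

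**Figure D2:**
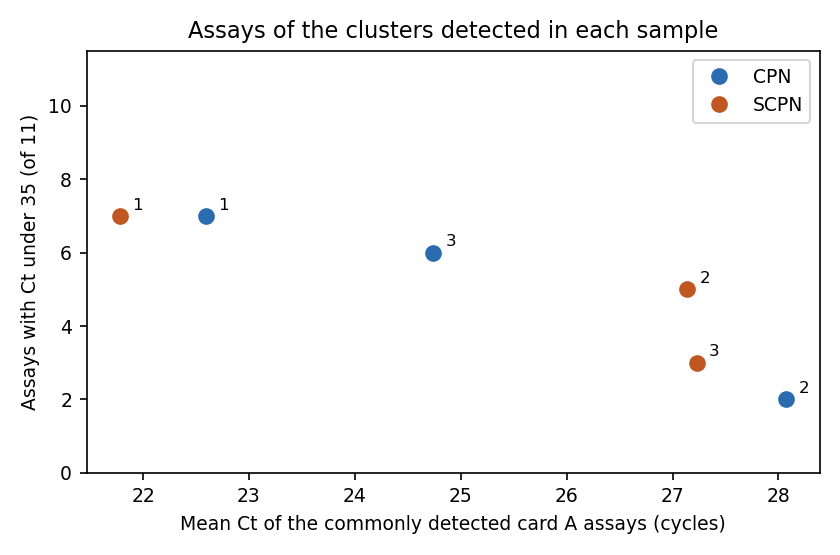
Number of the 11 cluster assays with Ct under 35 in each sample (y axis) against the mean Ct of the 159 commonly detected card A assays (x axis, cycles), with replicate numbers beside the points. The count ran from 7 at the lowest mean Ct values to 2 at 28.1.

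To set samples side by side, Ct of 35 or more and missing Ct were set to 35, the mean Ct over those assays of the card that every sample detected was subtracted, and the sign was turned. A level of 0 is then that mean, 1 unit is 1 cycle (a log2 unit at full PCR efficiency), and a sample at the limit gives only an upper bound. An assay's level was not compared with that of another assay except as stated for the a and b pairs, since assays can differ in efficiency. Assays with Ct under 35 in at least 3 samples were tested, 306 in all. Of the 11, 7 met this: miR-24, miR-23b, miR-27b and miR-27b*, and miR-27a, miR-27a* and miR-24-2*.

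The other 4 were detected in 0 samples. MiR-23a, the first microRNA of the a cluster, gave no Ct in any of its 6 wells, nor did the rat-named assays for miR-23a* and miR-24-1*. The mouse-named miR-24-1* gave 1 Ct, of 38.2, in CPN replicate 1. MiR-23a was thus undetected in CPN replicates 1 and 3 and SCPN replicate 1, in which miR-27a and miR-24-2* of the same cluster were both detected.

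MiR-24, the shared product, was the one assay of the 7 detected in all 6 samples, and its level stayed in a narrow range. Its raw Ct was 17.9, 24.2 and 20.4 for CPN, against 17.5, 23.1 and 23.1 for SCPN, and its levels were 4.70, 3.83 and 4.37 in CPN and 4.30, 4.06 and 4.12 in SCPN. By Ct it ranked 19, 23 and 20 in CPN and 24, 23 and 21 in SCPN among the 375 assays of card A, where assay efficiency also enters. The SCPN levels all lay between the lowest and the highest CPN level. CPN averaged 4.30 ± 0.44 and SCPN 4.16 ± 0.12 (SD, n = 3). The levels spanned 0.87 log2 units over the 6 samples, where the median span of the 224 assays detected in all samples was 2.27, and 97.3% of them had a wider span.

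The assays whose levels moved most like miR-24, each centred on its own mean, were miR-195, miR-19b and miR-19a, with root mean square differences of 0.187, 0.188 and 0.225 log2 units over the 6 samples. The median over the 223 assays compared was 0.817. MiR-195 stood at 1.24, 0.20 and 0.95 in CPN and 0.82, 0.12 and 0.35 in SCPN, so that, like miR-24, it was lowest in replicate 2 of each group.

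In the b cluster, miR-27b was the more variable. Its Ct was 24.02, missing and 27.9 in CPN and 23.3, 29.7 and 31.5 in SCPN. Its levels were -1.43, at or under -6.93 and -3.15 in CPN, and -1.50, -2.53 and -4.25 in SCPN. CPN replicate 2 stood apart, with its bound 2.68 log2 units under the lowest of the other 5 samples, from the 1 well that card A has for this assay. The other CPN samples lay within or above the SCPN range.

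MiR-23b, the neighbour of miR-27b, had Ct of 27.02, 35.2 and 29.9 in CPN and 26.0, 32.9 and 32.9 in SCPN. Its levels were -4.42, at or under -6.93 and -5.20 in CPN and -4.25, -5.71 and -5.64 in SCPN. CPN replicate 2 was again lowest, and the groups overlapped. CPN replicate 2 was thus at the limit for both b cluster microRNAs of card A, and miR-24 was also lowest there. That sample was also at the limit for miR-27b*, miR-27a and miR-24-2*, so assays of both clusters were at the limit there.

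MiR-27b*, the other arm of the Mir27b hairpin, was near the limit. The card has 2 wells for it, and it was detected in CPN replicate 1 (Ct 30.9 and 32.3), SCPN replicate 1 (28.2 and 28.7) and SCPN replicate 2 (33.5 and 35.9). CPN replicate 3 and SCPN replicate 3 each gave 1 Ct past the limit, 38.6 and 36.3, and CPN replicate 2 gave none. The measured levels were -7.35 in CPN replicate 1 against -4.85 and -6.63 in SCPN replicates 1 and 2. The bound of CPN replicate 3, at or under -8.53, was lower than all of these, while those of CPN replicate 2 (-6.20) and SCPN replicate 3 (-6.59) lay above the measured CPN level and so have no order against it.

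In the a cluster, miR-27a was detected in 2 CPN samples and 1 SCPN sample. Its Ct was 26.6, missing and 29.6 in CPN and 26.8, missing and 37.5 in SCPN. Its levels were -4.01, at or under -6.93 and -4.87 in CPN, and -5.05, at or under -7.86 and at or under -7.77 in SCPN. The measured SCPN sample lay under both measured CPN samples, and the bounds of the other SCPN samples lay 2.81 and 2.72 log2 units under the lowest measured level.

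MiR-27a*, the other arm of the same hairpin, was detected in 5 samples. Its levels were -4.18, -4.38 and -5.93 in CPN and -3.80, -4.12 and at or under -6.59 in SCPN, so the groups overlapped. The arms of Mir27a were not detected in the same samples. SCPN replicate 2 gave no Ct for miR-27a on card A and Ct of 31.9 and 32.5 for miR-27a* on card B, and CPN replicate 2 gave none for miR-27a and 33.2 in 1 of 2 wells for miR-27a*.

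MiR-24-2*, which comes from the a cluster copy of miR-24, was detected in CPN replicates 1 and 3 and in SCPN replicate 1, at levels of -6.12, -7.05 and -4.33. The bounds of the other 3 samples, -6.20, -6.93 and -6.59, all lay above the lowest measured level. Its detected samples were those of miR-27a.

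**Figure D3:**
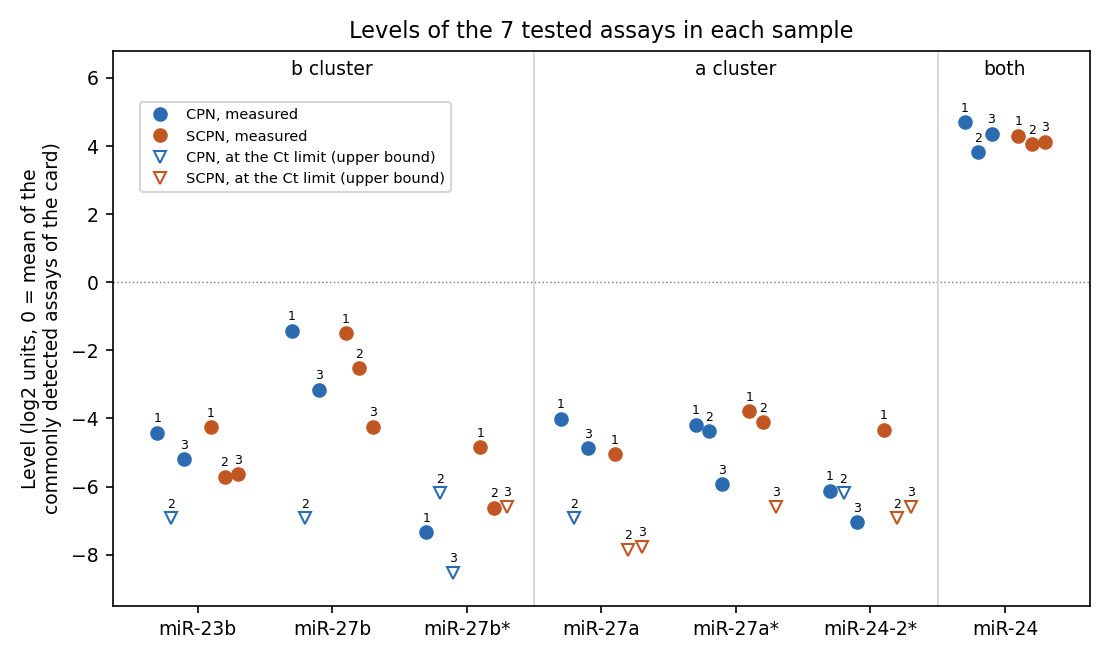
Level of each tested assay in each sample (log2 units, y axis), with CPN in blue, SCPN in orange and replicate numbers above the symbols. Filled circles are measured and open triangles are upper bounds at Ct 35. MiR-24 sits between 3.83 and 4.70 in all samples, while miR-27b drops to its bound in CPN replicate 2 and miR-27a in CPN replicate 2 and SCPN replicates 2 and 3.

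The comparison of SCPN with CPN asks which microRNAs differ between these classes of cortical neuron. None of the 7 passed. Of them 4 had a higher and 3 a lower SCPN mean, and their median log2 difference was 0.31, beside 45.1% higher and 54.9% lower with a median of -0.079 over all 306 assays. The members' median rested on single samples and on the processing: it was -0.43 without CPN replicate 2 (3 of 7 higher), -0.18 without SCPN replicate 1 and -0.074 at a limit of Ct 32 (each over the 4 members still tested, 1 higher), and 1.11 with the deposited scaling (6 of 7 higher). All 3 b cluster assays had higher means (median 1.08), while the a cluster had 1 higher and 2 lower (median -0.0048). Without CPN replicate 2, only miR-27b* of the 3 b cluster assays was higher and their median was -0.45, while the a cluster median was 0.15 with 2 of 3 higher. With limma and Benjamini-Hochberg adjustment over all assays, 0 of 7 and 0 of 306 (0%) had an adjusted p under 0.05. At an unadjusted p under 0.05 there were 0 of 7, against 25 of 306 (8.17%). The groups overlapped in all 7, where 15% of all tested assays did not overlap, 8.82% with SCPN higher and 6.21% with SCPN lower.

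Differences below are SCPN minus CPN with limma's SE and 95% interval, and means include samples at the limit. MiR-27b* differed by 1.34 ± 0.83 (-0.60 to 3.28, adjusted p 0.79), from a mean of -7.36 to -6.02. MiR-27a differed by -1.63 ± 1.06 (-4.10 to 0.84, adjusted p 0.79), from -5.27 to -6.89. MiR-27b differed by 1.08 ± 1.42 (-2.24 to 4.39, limma adjusted p 0.86). Its difference was -0.53 without CPN replicate 2, and 2.74 with no Ct limit, where a missing Ct was set to 40. The main differences of miR-27b*, miR-27a and miR-27b were the widest of the 7, and each interval holds 0.

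MiR-24-2* differed by 0.51 ± 0.81 (-1.40 to 2.41), miR-23b by 0.31 ± 0.82 (-1.60 to 2.23), miR-24 by -0.14 ± 0.55 (-1.41 to 1.14) and miR-27a* by -0.0048 ± 0.92 (-2.15 to 2.14), with limma adjusted p of 0.91, 0.93, 0.97 and 0.996. For miR-24, the best measured, the interval thus reaches from a 1.41 log2 unit decrease to a 1.14 unit increase. The difference of miR-23b turned to -0.45 without CPN replicate 2 and to -0.16 without SCPN replicate 1. That of miR-24 turned to 0.064 without CPN replicate 1, and that of miR-27a* to 0.32, 0.15 and 0.87 without CPN replicate 1, CPN replicate 2 or SCPN replicate 3. With no Ct limit, miR-27a* stood at -1.67 and miR-24-2* at 0.11, and quantile normalization put miR-24-2* at 0.024.

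With the replicate number as a block, 1 of the 7 had an unadjusted p under 0.05, miR-27a at 0.036, whose limma adjusted p was 0.27. Over all assays this count was 51 with the block and 25 without, and 0 passed after adjustment in both fits. MiR-27a was lower in SCPN in the pairs numbered 1 and 3, and in the pair numbered 2 both samples were at the limit and have no order. The fit took that pair at its limits, -6.93 for CPN and -7.86 for SCPN, and so counted it as a decrease.

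Both samples numbered 1 detected all 7 assays, so that pair has no bounds. SCPN minus CPN was there 0.17 for miR-23b, -0.071 for miR-27b, 2.497 for miR-27b*, -1.04 for miR-27a, 0.39 for miR-27a*, 1.79 for miR-24-2* and -0.40 for miR-24. These are values of 1 sample a group with no test. MiR-23b, miR-27b*, miR-27a, miR-24-2* and miR-24 had the sign they had over all samples, and miR-27b and miR-27a* the opposite one.

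**Figure D4:**
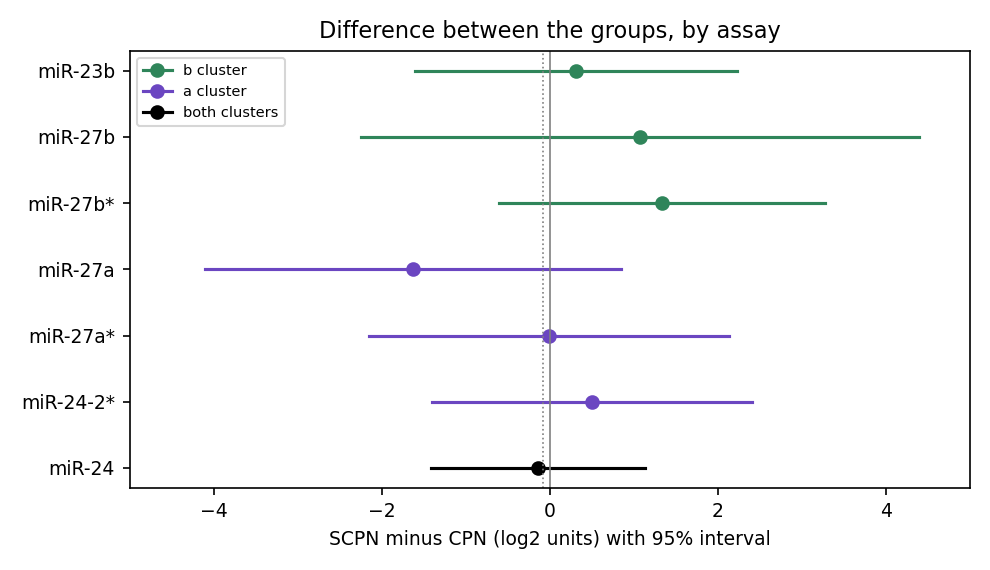
Log2 difference SCPN minus CPN of each tested assay (points) with limma's 95% interval (lines), where the dotted line is the median of all tested assays, -0.079. The 3 b cluster points lie above 0 and miR-27a lies lowest at -1.63, and every interval crosses 0. Without CPN replicate 2, miR-23b and miR-27b would lie under 0, at -0.45 and -0.53.

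Whether the clusters moved apart was asked within samples, as the level of an a cluster assay minus that of its b cluster counterpart on the same card. Most of the scaling cancels in this value. Its change between groups can be read, while its size in one sample also holds the assays' efficiencies. Of 5 such pairs 2 could be run, miR-27a with miR-27b and miR-27a* with miR-27b*, since miR-23a and miR-24-1* were undetected and the cards have no mouse-named assay of miR-23a* or miR-23b*.

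MiR-27b stood above miR-27a by 2.58 and 1.72 log2 units in CPN replicates 1 and 3, and both were at the limit in CPN replicate 2, where the value is set to 0 and carries no order. In SCPN the gap was 3.55 in replicate 1, at least 5.33 in replicate 2 and at least 3.53 in replicate 3. The gap was thus wider in every SCPN sample than in either CPN sample with a measured one. The a minus b value averaged -1.43 ± 1.31 for CPN and -4.14 ± 1.03 for SCPN (SD, n = 3), a change of -2.70 ± 0.96 (SE). An exact two-sided permutation test of unpaired samples gave p = 0.1, below which 3 against 3 samples cannot go, or 0.2 when adjusted over both pairs. An exact permutation within same-numbered samples gave p = 0.25, the lowest that 3 pairs of samples allow.

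Without CPN replicate 2, the sample that carries no order, the change was -1.99, and the exact permutation p of 0.2 is the lowest that 2 samples against 3 allow. In the samples numbered 1 alone, where all is measured, it was -0.97. It was -5.22 with no Ct limit, where a missing Ct was set to 40, as for miR-27a in SCPN replicate 2. At a limit of Ct 32 it was -0.70 (exact permutation p 0.6), so its size rests on the limit.

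For the other arms, miR-27a* stood above miR-27b* by 3.16, at least 1.83 and at least 2.599 log2 units in CPN. The bound of CPN replicate 2 is not firm, since 1 of the 2 miR-27a* wells gave no Ct and was left out. In SCPN it stood above by 1.05 and 2.51 in replicates 1 and 2, and both were at the limit in replicate 3. Both SCPN values were lower than those of CPN replicates 1 and 3, while the bound of CPN replicate 2 gives no order against SCPN replicate 2. The change was -1.34 ± 0.82 (SE), from a CPN mean of 2.53 ± 0.67 to an SCPN mean of 1.19 ± 1.26 (SD, n = 3), with an exact permutation p of 0.2 and 0.2 after adjustment. An exact permutation within same-numbered samples gave p = 0.5. Without SCPN replicate 3 it was -0.75, with an exact permutation p of 0.4, and in the samples numbered 1 alone it was -2.11. With no Ct limit it was -5.45, and with the lowest Ct of the wells -1.74, each with an exact permutation p of 0.1, so its size too rests on how wells near the limit are read. The change had the same sign in both arms, toward the b cluster in SCPN, and neither passed.

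**Figure D5:**
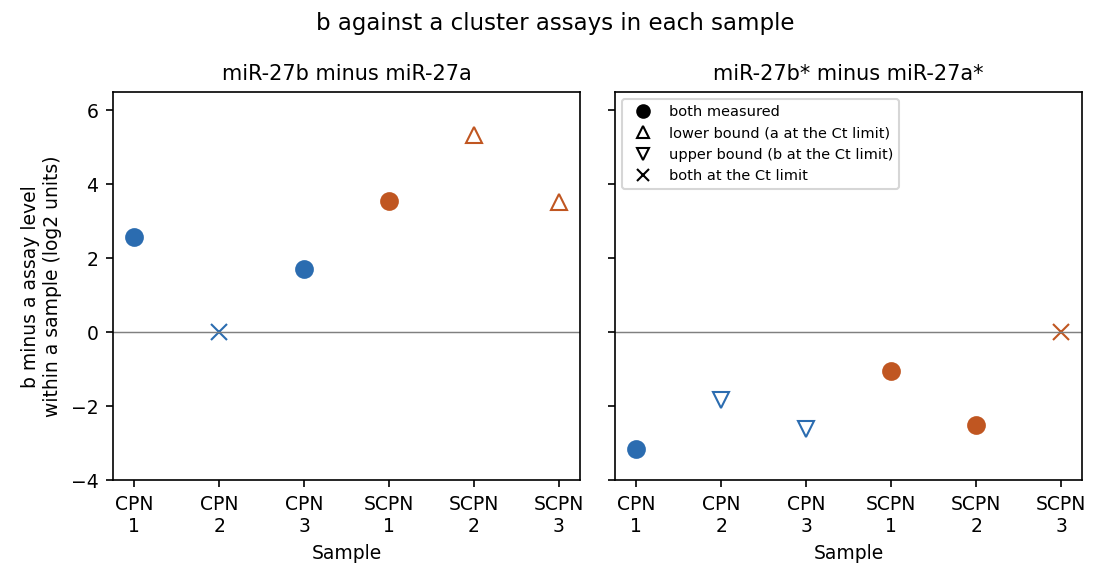
Level of the b assay minus that of the a assay within each sample (log2 units), for miR-27b and miR-27a (left) and for miR-27b* and miR-27a* (right). Upward triangles are lower bounds, downward triangles upper bounds and crosses have both assays at the limit. On the left the SCPN values, 3.53 to 5.33, lie above the CPN values of 1.72 and 2.58.

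MiR-128, a neuronal microRNA, shares a run of 8 bases with miR-27a that covers the miR-27 seed, starting at base 1 of miR-128 and base 2 of miR-27a. Its levels were 2.51, 2.85 and 3.06 in CPN and 2.51, 2.05 and 2.20 in SCPN, a difference of -0.55 ± 0.53 (SE, limma adjusted p 0.81). The mean was lower in SCPN, as for miR-27a and unlike miR-27b. The groups did not overlap, though replicate 1 of SCPN lay just under replicate 1 of CPN.

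The authors' deposited table of relative quantities, where a value above 1 means more in SCPN, holds 2 of the 11 assays, those with a Ct in all samples. It gives 3.05 for miR-23b and 2.15 for miR-24, where the values here correspond to 1.24-fold and 0.909-fold. Of the 280 entries of the authors' deposited table, 78.9% are above 1, with a median of 1.65, and 77.1% and 60.8% of its assays have a lower ratio than miR-23b and miR-24. That table is scaled on small RNA control wells. With that scaling the median difference over all 306 assays moved by 0.95, to 0.87, and the share with higher means in SCPN went from 45.1% to 82.0%. The difference of miR-24 went to 1.11 and that of miR-23b to 1.56, with limma adjusted p of 0.92 and 0.83.

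Markers of the cells in which these clusters are known were read on the same scale, since in such samples fewer cells of a type and less RNA per cell cannot be told apart. All 7 neuron assays on the cards were tested, and 3 had higher and 4 lower means in SCPN (median -0.026). MiR-9 averaged 8.30 ± 1.08 for CPN and 8.01 ± 0.68 for SCPN (SD, n = 3). The 3 with higher means were miR-138, miR-137 and miR-9*, by 1.02, 0.58 and 0.12, of which miR-138 did not overlap between the groups (limma adjusted p 0.71). Of 7 vascular and mesenchymal assays 2 were undetected in all samples and 5 were tested, of which 3 had higher and 2 lower means in SCPN (median 0.084), the lower ones being miR-199a-3p (-0.40) and miR-143 (-0.036). The endothelial miR-126-3p stood at 2.33, 1.45 and 2.25 in CPN and 2.77, 4.44 and 2.14 in SCPN, and the log2 of the list's summed level, most of which is miR-126-3p, ran from 1.70 to 2.47 in CPN and from 2.23 to 4.53 in SCPN. SCPN replicate 2, in which miR-126-3p was highest, was not the highest sample for any of the 7 cluster assays. The gap of miR-27b over miR-27a was at least 5.33 there, against 3.55 in SCPN replicate 1 and at least 3.53 in SCPN replicate 3. A link with miR-126-3p was not tested.

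All 5 astrocyte assays tested had lower means in SCPN (median -0.20), among them miR-29a, which averaged -2.52 ± 0.78 for CPN and -2.80 ± 0.13 for SCPN (SD, n = 3), and their log2 summed level ran from 2.18 to 3.995 in CPN and from 2.20 to 4.01 in SCPN. That sum was highest in both samples numbered 1, in which miR-23b and miR-27b were also highest. The neuron sum was highest in the same samples, at 9.77 and 9.71 against at most 9.46 in the others, so this was not particular to the astrocyte list. Of 7 microglia and blood assays 5 were tested. MiR-142-5p was undetected in all samples and miR-451 was detected in SCPN replicate 1 alone. Of the 5 tested, 4 had higher means in SCPN (median 0.27), and the lower one was miR-146a (-0.69). Their log2 summed levels were 1.40 to 2.01 in CPN and 0.78 to 2.81 in SCPN, and miR-223 averaged -4.07 in CPN and -3.98 in SCPN. The oligodendrocyte miR-219 was detected in 1 sample, SCPN replicate 1, and was not tested, and the 1 tested assay of that list had a log2 level of -8.87 to -5.57 in CPN and -8.16 to -7.07 in SCPN. No marker passed the adjusted threshold, and the part of these cells in the values above was not tested.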

How the data were processed

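MicroRNA was isolated with the miRVana kit, per the labels' protocols, and run on TaqMan rodent microRNA cards, per the series' design text. The deposited raw sheet gives a Ct for 768 wells on 2 cards, the normalised sheet the same Ct minus the authors' control value of the sample and card, and the fold table a ratio, which was recomputed from the normalised sheet for 280 of 280 entries (within 0.01%). The software and threshold behind the Ct were not given in the sources used here.

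An assay's value was the mean of its determined wells, without any undetermined one. Levels were made as described above, on 159 common assays of card A and 65 of card B, and the model was fitted in R 4.3.3 with limma 3.58.1 (lmFit, eBayes). The a minus b values were compared with exact permutation tests over samples (scipy 1.17.1). Read depth does not exist for such data, and 3 samples a group and the Ct limit set the precision. The fit was run on simulated, normally spread levels with no Ct limit and with shifts wider than the main differences of these assays. That run does not speak of samples at the limit or of small differences.

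All 11 assays were named. Besides them, the rule named the 3 assays most like each one detected in all samples, assays that share a seed, miR-128 and 1 defining marker a cell type. Members, lists and tests were chosen with earlier results of these data known. Same-numbered samples deviated together, with correlations of 0.55, 0.29 and 0.30 over 306 assays. The numbers were therefore taken to pair the samples in an alternative, the replicate block, from the data and not from the labels. The main tests left the samples unpaired. Unlike-numbered samples correlated from -0.51 to 0.32. The 0.32 was that of CPN replicate 2 with SCPN replicate 3, above the pairs numbered 2 and 3, so the pairing is not settled. Alternatives were another Ct limit, scaling, filter, moderation or weights, the replicate block, and leaving out each sample. An assay with Ct under 35 in fewer than 3 of the samples kept was then not tested. With no Ct limit, measured Ct was kept as it was and a missing Ct was set to 40.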

Additional observations from a re-analysis of the deposited data

How the results depend on the processing

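The number of assays with an adjusted p under 0.05 was 0 in all alternatives but sample weights, where it was 1 (miR-666-5p, which is not of these clusters). The count at unadjusted p under 0.05, 25, was 51 with the replicate block, 42 with sample weights, 14 with no filter on detection and 14 without SCPN replicate 3. The calls added by the block were at unadjusted p alone, miR-27a among them, and 0 assays passed after adjustment. Of 122 values of the 7 assays under alternatives, 27 equal the main estimate, most because the setting leaves the estimate as it is (the replicate block, no filter on detection, and trend and robust moderation), and speak of no stability. Of the other 95, 79 had the same direction and 16 reversed, and no adjusted p was under 0.19. MiR-27a ran from -2.52 to -0.38, miR-27b* from 0.75 to 3.78 and miR-24-2* from 0.024 to 1.79, each with 1 sign wherever tested, though miR-24-2* came close to 0. Each of them was detected in only 3 samples, so leaving out any of those samples left the assay untested. Only samples at the limit could be left out for them, and the single sign does not speak of stability against the measured samples. The a minus b changes equal the main estimate in 7 of 14 and 6 of 13 alternatives, where scaling cancels or the setting leaves the estimate as it is. Otherwise they ran from -5.22 to -0.70 for miR-27a minus miR-27b and from -5.45 to -0.75 for the other arms. For both changes, the samples left out were only those with an assay of the pair at the limit. Leaving out a sample with both measured left an assay of the pair untested, so these ranges do not cover it. The members' median ran from -0.43 to 1.11, and was -0.087 with sample weights (3 of 7 higher). MiR-23b turned to -0.062 at a limit of Ct 32 and to -0.13 with sample weights, and ran from -0.45 to 0.86 when 1 sample was left out. MiR-24 turned to 1.11 with the deposited scaling and to 0.21 with a scale free of these members and of the imprinted 12qF1 microRNAs, and ran from -0.43 to 0.064 when 1 sample was left out. MiR-27a* turned to 0.38, 0.12 and 0.037 with those scalings and with 1 scale over both cards, and to 0.39 in the samples numbered 1 alone, an alternative chosen after seeing the data. It ran from -0.56 to 0.87 when 1 sample was left out. MiR-27b turned to -0.071 in the samples numbered 1, and ran from -0.53 to 2.28 when 1 sample was left out. The causes of these reversals were not tested. Detection limits the low assays: 12 of the 42 values behind the 7 assays are bounds.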
